A study of Mus musculus with 91 samples.

Results

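*αSma-EYFP* cells of the XY mouse gonad were compared between E12.5 and E11.5, the day on which testis cords appear. αSma is the smooth muscle actin encoded by *Acta2*, and in this line a yellow fluorescent protein stands under the *Acta2* promoter. Cells were thus sorted for this reporter and not for a lineage as such. The paper found SRY and SOX9 protein in E11.5 *αSma-EYFP* cells. It proposes that, at least early, the population is mixed and holds supporting cells as well as interstitial and stromal cells. It also names leaky expression of the transgene as possible, and it left these cells out of its main analysis. All genes measured by a single-gene transcript cluster of the array, with a log2 intensity of 6 or more in 2 of 3 arrays of either group, were taken. This gave 13778 genes (15149 transcript clusters) of the 15359 genes (16859 clusters) that reached this level in some group of the series. The limit decided little, because 13318 of the genes reached it at both stages. *Gpr19* lay just inside it, with log2 levels of 5.96, 6.03 and 5.94 at E12.5 and 6.00, 5.97 and 6.00 at E11.5, and *Myo18b* just outside, with 6.00 (below the limit before rounding), 5.94 and 6.04 at E12.5 and 5.91, 5.99 and 5.99 at E11.5.

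The series holds 91 Affymetrix Mouse Gene 1.0 ST arrays, 90 of them of cells sorted from fetal XX and XY gonads, and 6 of them are compared here, 3 of XY *αSma-EYFP* cells at E12.5 and 3 of XY *αSma-EYFP* cells at E11.5. Both groups carry the transgene *Tg(Acta2-EYFP)Jll*, in the homozygous state on both sides of the mating, with FVB as the labelled strain and a mixed FVB/CD-1 background in the methods. GEO's labels call the E12.5 cells interstitial and the E11.5 cells mesenchymal. Gonads were freed of mesonephros and pooled within a sex from one or more litters before trypsin and sorting, so an array stands for a pool of embryos. The methods describe the arrays of a group as biological replicates, and whether each came from separate litters is not given in the sources used here. Embryos were sexed by genotype at E11.5 and by eye at E12.5. Whether the stages were collected or scanned on the same days is not given in the sources used here, so stage and day cannot be told apart. Other groups are used beside these: XX *αSma-EYFP* cells of the same line and XY supporting cells (CD-1 and C57BL/6J crosses), which came from *Sox9-ECFP* gonads at E12.5 and from *Sry-EGFP* gonads at E11.5.

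The bipotential gonad contains supporting cell precursors, interstitial and mesenchymal progenitors, vessels and germ cells. In an XY gonad the Y-linked transcription factor SRY acts for a short time in supporting precursors and switches on *Sox9*, after which these cells become Sertoli cells and enclose the germ cells in cords. Sertoli cells secrete anti-Müllerian hormone and the ligand desert hedgehog. Interstitial cells between the cords receive the hedgehog signal through the receptor PTCH1 and the transcription factor GLI1, and a few of them become the steroid-producing fetal Leydig cells. Smooth muscle actin is best known from vessel walls and from the myoid cells around the cords, but it is also made by many mesenchymal cells.

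Between E12.5 and E11.5, 457 genes differed by more than 1.5-fold with an adjusted p under 0.05 (limma, Benjamini-Hochberg adjustment over all clusters fitted), which was 3.32% of the 13778. Of these, 185 (1.34%) were higher at E12.5 and 272 (1.97%) were lower at E12.5. More than 2-fold were 64 of the higher and 88 of the lower genes, and more than 4-fold were 12 of the higher and 10 of the lower genes. The median log2 difference over all 13778 genes was 0.009. The 3 arrays of E12.5 did not overlap with the 3 of E11.5 for 451 of the 457, a pattern that 25.5% of all the genes showed. These shares of 1.34%, 1.97% and 25.5% are the background for every list count and every statement of overlap below. Of the called genes, 21 reached the limit only at E12.5 and were higher, and 19 reached it only at E11.5 and were lower; such genes could enter only by their higher stage. Most changes were of moderate size, and genes with large changes were found from dim to bright intensities.

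**Figure D1:**
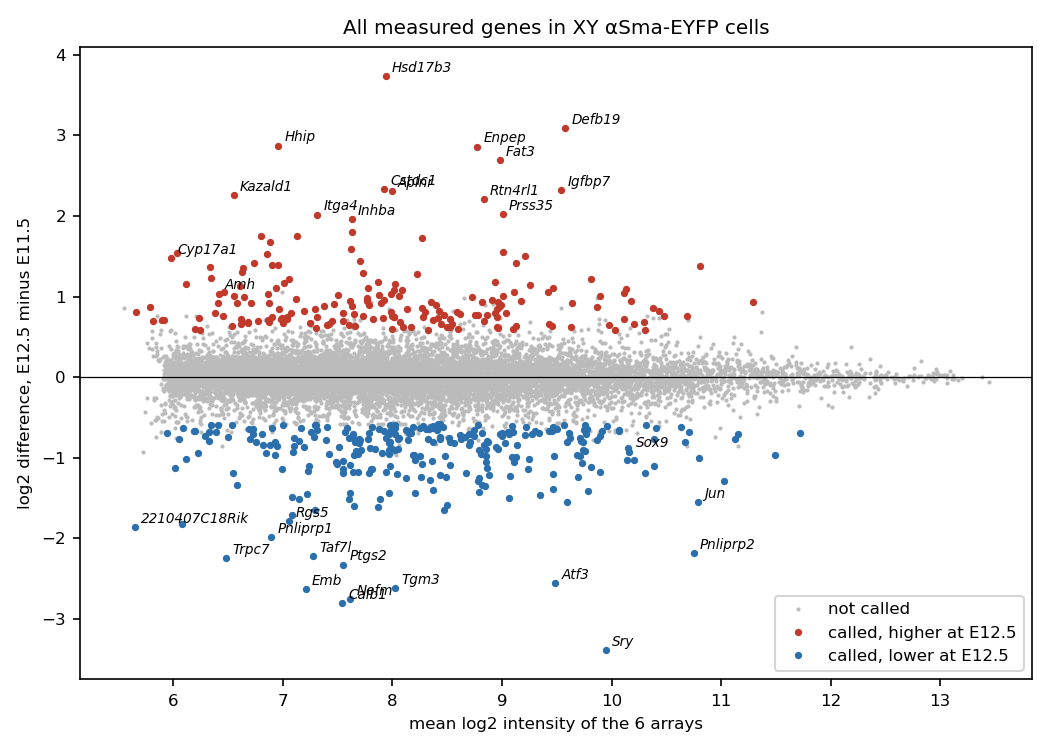
Log2 difference (E12.5 minus E11.5, vertical axis) against the mean log2 intensity of the 6 arrays (horizontal axis) for the 13778 genes in XY *αSma-EYFP* cells, with one point per gene. The 185 genes called higher at E12.5 are red, the 272 called lower are blue and the rest grey; *Hsd17b3* at 3.74 and *Sry* at -3.39 lie farthest from 0.

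*Sry*, the gene that starts testis development, fell more than any other called gene. Its log2 levels were 8.08, 8.58 and 8.10 at E12.5, against 11.76, 11.60 and 11.56 at E11.5. All arrays of a stage lay close together and the stages were far apart. The log2 difference was -3.39 ± 0.19 (SE), 10.5-fold lower at E12.5 (adjusted p = 5.1e-23). In XX *αSma-EYFP* cells, which have no Y chromosome, the cluster read 7.75 at E12.5 and 7.73 at E11.5, beside 8.25 and 11.64 on average in XY cells. XY supporting cells read 8.51 at E12.5 and 11.89 at E11.5. At E13.5 *Sry* read 8.09 in *αSma-EYFP* cells. Other Y-linked genes checked the labelled sex: *Eif2s3y* averaged 9.22 at E12.5 and 9.21 at E11.5, *Kdm5d* 8.9 and 8.96, and *Uty* 7.29 and 7.57, while in XX *αSma-EYFP* cells all 3 averaged under 6 at both stages. None of the 3 was called between the stages.

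*Sox9*, the direct target of SRY, was also lower at E12.5, but by much less. It had log2 levels of 10.00, 9.61 and 9.50 at E12.5, against 10.88, 10.24 and 10.75 at E11.5. The E12.5 arrays all lay below those of E11.5, with a difference of -0.92 ± 0.19 (1.9-fold lower, adjusted p = 0.00053). In supporting cells *Sox9* stood at 11.14 at E12.5 and 11.74 at E11.5, and in XX *αSma-EYFP* cells at 8.30 and 8.93. Thus at both stages the level in XY *αSma-EYFP* cells was between that of XX *αSma-EYFP* cells and that of XY supporting cells. *Fgf9*, which encodes a growth factor that maintains *Sox9*, had 8.75, 7.82 and 8.57 at E12.5, against 9.24, 8.40 and 9.40 at E11.5 (difference -0.63 ± 0.21, adjusted p = 0.067, not called).

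Several genes of Sertoli cells were among those with the largest rise. *Hsd17b3*, which encodes the enzyme that makes testosterone from androstenedione and is active in fetal Sertoli cells, had log2 levels of 10.58, 9.26 and 9.59 at E12.5, against 5.86, 6.10 and 6.25 at E11.5. Replicate 1 was the highest E12.5 array and no arrays overlapped. The log2 difference of 3.74 ± 0.30 was the largest rise, 13.4-fold (adjusted p = 2.4e-15). Supporting cells had 11.08 at E12.5 and 7.45 at E11.5, and XX *αSma-EYFP* cells 5.27 and 5.64.

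*Defb19*, which encodes a beta-defensin of Sertoli cells, had log2 levels of 11.78, 10.49 and 11.11 at E12.5, against 8.09, 7.82 and 8.18 at E11.5. It was 8.54-fold higher at E12.5 (adjusted p = 3.6e-13), and replicate 1 was again the highest. *Ptgds*, the prostaglandin D synthase that SOX9 switches on, had 9.30, 8.10 and 8.40 at E12.5, against 7.44, 7.25 and 7.64 at E11.5 (log2 difference 1.16 ± 0.18, adjusted p = 2.5e-06). *Amh*, the gene of anti-Müllerian hormone, had 7.43, 6.71 and 6.67 at E12.5, against 5.74, 6.00 and 5.94 at E11.5. *Amh* was 2.05-fold higher at E12.5 (adjusted p = 7.8e-06), without overlap, but stayed below the 9.85 of supporting cells at E12.5. *Gatm*, a gene of creatine synthesis, had 11.09, 10.16 and 9.96 at E12.5, against 9.76, 9.10 and 9.32 at E11.5. Its call (difference 1.01, adjusted p = 0.037) was lost without replicate 1 of E12.5 (0.67, adjusted p = 0.44), replicate 2 of E11.5 (0.86, adjusted p = 0.2) or replicate 3 of E11.5 (0.98, adjusted p = 0.13).

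Of a list of 22 Sertoli genes, all of them measured, 6 were higher (*Hsd17b3*, *Defb19*, *Ptgds*, *Amh*, *Gatm* and *Erbb4*), 1 was lower (*Sox9*) and 15 were not called, where 1.34% of all genes were higher and 1.97% lower. The list median was 0.21, beside 0.009 over all genes. The higher genes numbered 4 without E12.5 replicate 1 and 4 without E11.5 replicate 3, and the lower genes 2 without E12.5 replicate 1 and 2 without E11.5 replicate 2. Among those not called was *Dhh*, the gene of desert hedgehog, with 6.60, 6.22 and 5.77 at E12.5, against 5.97, 6.07 and 6.14 at E11.5 (difference 0.14 ± 0.13, adjusted p = 0.846), and a supporting cell level of 7.95 at E12.5. *Cst9* was not called either, with 7.89, 6.04 and 6.38 at E12.5 and 7.20, 5.75 and 6.55 at E11.5. The mean level of the 22 genes was 8.91, 8.22 and 8.31 in the E12.5 arrays, against 8.15, 7.75 and 8.08 in the E11.5 arrays, and all 6 lay between XX *αSma-EYFP* cells (7.11 to 7.19 at E12.5, 7.05 to 7.17 at E11.5) and XY supporting cells (10.01 to 10.07 at E12.5, 8.80 to 8.96 at E11.5). E12.5 replicate 1 was highest in this mean. In sorted pools, more cells of a type and more RNA per cell cannot be told apart. The part of supporting cells in these differences was not tested.

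**Figure D2:**
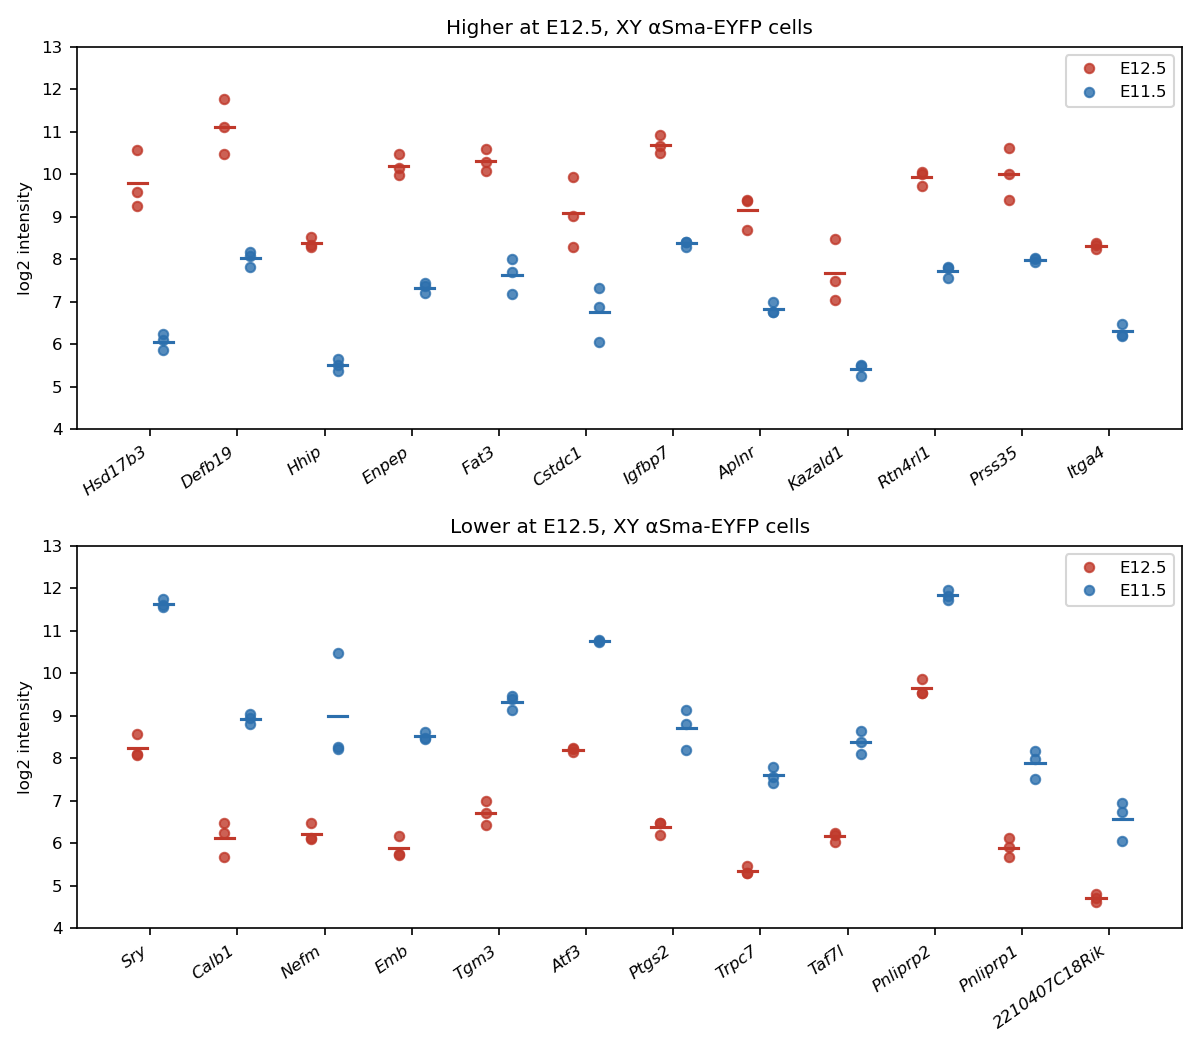
Log2 intensity (vertical axis) of the 12 genes with the largest difference in each direction among called genes without overlap, in the 3 E12.5 arrays (red, left) and the 3 E11.5 arrays (blue, right) of XY *αSma-EYFP* cells. Points are arrays and bars group means; *Sry* reads 8.08 to 8.58 at E12.5 and 11.56 to 11.76 at E11.5, and the E11.5 arrays of *Nefm* spread from 8.22 to 10.48.

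Target genes of the hedgehog signal rose. *Hhip*, a membrane protein that binds hedgehog ligands and is itself switched on by the signal, had log2 levels of 8.34, 8.30 and 8.53 at E12.5, against 5.37, 5.67 and 5.51 at E11.5. The arrays within a stage lay close together, and *Hhip* was 7.33-fold higher at E12.5 (log2 difference 2.87 ± 0.14, adjusted p = 4.7e-26). *Gli1* had 8.43, 8.83 and 8.62 at E12.5, against 7.71, 7.46 and 7.48 at E11.5 (2.11-fold, adjusted p = 1.4e-07). *Ptch1*, the receptor, had 10.73, 10.98 and 10.71 at E12.5, against 9.94, 9.92 and 10.01 at E11.5 (1.81-fold, adjusted p = 0.0022). None of these overlapped between the stages. They were the 3 called among 11 measured hedgehog genes, with none lower and a list median of 0.14, where 1.34% of all genes were higher. Supporting cells differed here: *Hhip* read 5.54 at E12.5 and 5.56 at E11.5 in them, and *Gli1* 7.0 and 6.99. None of the 9 hedgehog genes with a promoter in the RefSeq table held GACCACCCA, the core read by GLI proteins, on either strand; 0.289% of all genes with a promoter did, and this motif was chosen after the values were seen.

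Of 7 measured fetal Leydig genes, 2 were higher (1.34% of all genes were), none was lower and the median was -0.12. In a fit of the 6 arrays alone neither was called, and with the replicate number as a block in that fit 1 was. *Cyp17a1*, the enzyme that turns progestins into androgens, had log2 levels of 7.83, 5.75 and 6.58 at E12.5, against 5.18, 5.26 and 5.28 at E11.5. The E12.5 arrays spread widely but lay above all E11.5 arrays, with a difference of 1.48 ± 0.27 (2.79-fold, adjusted p = 6.9e-05). It was 0.92 (adjusted p = 0.023) without E12.5 replicate 1, and in the 6 arrays alone the adjusted p was 0.071. At E13.5 *Cyp17a1* averaged 9.36. *Vnn1*, which encodes pantetheinase, had 8.92, 8.19 and 8.10 at E12.5, against 7.93, 6.85 and 7.56 at E11.5 (difference 0.95, adjusted p = 0.0011). Its call was lost without E12.5 replicate 1 (0.69, adjusted p = 0.062) or E11.5 replicate 2 (0.65, adjusted p = 0.079), so the list count fell to 1 without either array; in the 6 arrays alone the adjusted p of *Vnn1* was 0.087. *Cyp11a1*, which makes pregnenolone from cholesterol, had 6.89, 5.44 and 5.71 at E12.5, against 7.05, 6.87 and 6.70 at E11.5 (difference -0.86 ± 0.28, adjusted p = 0.058, not called). *Star*, which carries cholesterol into mitochondria, had 8.60, 7.49 and 7.24 at E12.5, against 8.28, 8.60 and 8.51 at E11.5 (difference -0.69, adjusted p = 0.059, not called). E12.5 replicate 1 was thus the highest E12.5 array for all of these genes, and by E13.5 *Cyp11a1* averaged 8.66 and *Star* 8.68. *Nr5a1*, a transcription factor of steroid-producing cells, had 7.97, 8.01 and 7.84 at E12.5, against 8.14, 8.05 and 8.27 at E11.5 (not called, adjusted p = 0.44). CAAGGTCA, a site that its protein reads, was in neither of the 2 Leydig genes with a listed promoter, and in 1.76% of all genes. A further 5 genes of the list, *Insl3* among them, have no single-gene cluster and were not analysed here.

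*Acta2*, whose promoter drives the reporter, had log2 levels of 9.14, 8.39 and 8.57 at E12.5, against 7.88, 8.23 and 7.49 at E11.5. The arrays did not overlap, but the difference of 0.83 ± 0.38 was not called (adjusted p = 0.29). XX *αSma-EYFP* cells stood at 8.71 at E12.5 and 7.74 at E11.5, while XY supporting cells stood at 5.95 and 6.02. Of 20 smooth muscle and pericyte genes 2 were higher, 1 was lower and the median was 0.04. Of all genes 1.34% were higher and 1.97% lower. *Smtn* (smoothelin, a contractile protein) was higher by 0.62 (adjusted p = 0.00036), with 8.76, 8.88 and 8.80 at E12.5, against 8.22, 8.22 and 8.12 at E11.5. *Myocd*, a coactivator of smooth muscle genes, was higher by 0.60 (adjusted p = 3.4e-05), with 6.44, 6.59 and 6.46 at E12.5, against 5.80, 6.00 and 5.90 at E11.5. Without E12.5 replicate 2 or E11.5 replicate 1 its difference was 0.55, under the limit of 1.5-fold, which left 1 higher gene of the list. *Rgs5*, a marker of pericytes, fell. It had 5.93, 6.59 and 5.97 at E12.5, against 7.92, 8.36 and 7.57 at E11.5 (3.44-fold lower, adjusted p = 3.6e-07). Other contractile genes were not called, among them *Tagln* (difference -0.48), *Myh11* (0.04), *Cnn1* (-0.40) and *Des* (-0.33).

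Of 18 measured interstitial and mesenchymal genes 3 were higher, 2 were lower and the median was 0.34. Of all genes 1.34% were higher and 1.97% lower. *Vcam1*, a cell adhesion molecule, had log2 levels of 7.46, 7.23 and 7.64 at E12.5, against 5.85, 6.33 and 5.90 at E11.5 (2.66-fold higher, adjusted p = 1.3e-08). *Wnt5a*, a secreted ligand of mesenchyme, had 9.17, 9.34 and 9.15 at E12.5, against 8.24, 8.36 and 8.08 at E11.5 (1.99-fold higher, adjusted p = 4.8e-05). The stages did not overlap for either gene. *Pdgfra*, a receptor of interstitial progenitors, had 10.78, 11.29 and 11.09 at E12.5, against 10.46, 10.39 and 10.19 at E11.5, without overlap but not called (difference 0.70 ± 0.29, adjusted p = 0.197). *Nr2f2*, a nuclear receptor that marks the interstitium, had 10.47, 10.72 and 10.70 at E12.5, against 10.34, 10.47 and 10.11 at E11.5 (adjusted p = 0.694). The 2 lower genes were *Osr1* (difference -0.84, adjusted p = 0.013) and *Nr2f1* (-0.81, adjusted p = 0.0033), transcription factors of early mesoderm and mesenchyme. In E11.5 replicate 2 they read 7.69 and 8.48, above the other E11.5 arrays, and without that array neither was called (-0.65, adjusted p = 0.17, and -0.63, adjusted p = 0.086). *Osr1* was also not called without E12.5 replicate 2 (-0.81, adjusted p = 0.057). The mean of the 18 genes was 8.49 to 8.65 at E12.5 and 8.14 to 8.45 at E11.5, against 6.62 to 6.75 and 7.18 to 7.32 in XY supporting cells of the same stages. The list joins interstitial and mesenchymal genes, so it cannot check the label that GEO gives to either stage.

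Of 36 measured collagen and matrix genes 8 were higher at E12.5, 1 was lower and the median was 0.36. Of all genes 1.34% were higher and 1.97% lower. *Col1a2*, a chain of type I collagen, had 9.16, 9.51 and 9.18 at E12.5, against 8.19, 8.52 and 8.36 at E11.5 (1.9-fold higher, adjusted p = 0.0014). *Bgn*, the proteoglycan biglycan, had 9.57, 9.63 and 9.71 at E12.5, against 8.47, 9.06 and 8.20 at E11.5 (2.08-fold higher, adjusted p = 0.001). *Col14a1*, a collagen that binds fibrils, had 9.49, 9.60 and 9.07 at E12.5, against 8.19, 8.70 and 8.39 at E11.5 (1.94-fold higher, adjusted p = 0.00055). None of these 3 genes had overlapping arrays, a pattern that 25.5% of all genes showed. *Col6a3* (0.76), *Lama2* (0.73), *Col4a1* (0.70), *Nid1* (0.70) and *Col4a2* (0.60) completed the higher genes; the last 4 encode parts of basement membranes. The count was 5 without E12.5 replicate 2, and *Col6a3* was then not called (0.59, adjusted p = 0.17), nor without E11.5 replicate 1 (0.71, adjusted p = 0.069) or 3 (0.65, adjusted p = 0.12). *Postn*, which encodes periostin, was lower with 8.09, 8.22 and 8.10 at E12.5, against 9.17, 10.22 and 8.88 at E11.5 (difference -1.29, adjusted p = 0.0027), but without E11.5 replicate 2 it was not called (-0.89, adjusted p = 0.12).

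Outside these lists, other secreted and surface proteins rose strongly. *Enpep*, the aminopeptidase A that cleaves angiotensin II, had log2 levels of 10.15, 10.48 and 9.98 at E12.5, against 7.37, 7.44 and 7.21 at E11.5 (7.27-fold higher, adjusted p = 6.7e-14). *Aplnr*, the apelin receptor, had 9.40, 8.69 and 9.37 at E12.5, against 6.76, 6.76 and 6.99 at E11.5 (4.97-fold higher, adjusted p = 1.1e-09). *Igfbp7*, a secreted binding protein of the insulin-like growth factor family, had 10.67, 10.51 and 10.93 at E12.5, against 8.42, 8.42 and 8.30 at E11.5 (4.99-fold higher, adjusted p = 3.4e-10). The stages did not overlap for any of the 3. *Fat3*, a giant cadherin, is read by 14 member clusters, of which 13 were higher; the cluster standing for it had 10.29, 10.09 and 10.59 at E12.5, against 7.70, 8.02 and 7.19 at E11.5 (6.45-fold higher, adjusted p = 6e-05). *Itga4*, the integrin subunit that pairs in the receptor for VCAM1, had 8.38, 8.24 and 8.35 at E12.5, against 6.21, 6.48 and 6.23 at E11.5 (4.05-fold higher, adjusted p = 1.3e-12). *Rtn4rl1*, a relative of the Nogo receptor, was 4.61-fold higher, with 10.02, 9.72 and 10.07 at E12.5, against 7.56, 7.80 and 7.83 at E11.5.

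The remaining genes with the largest rise had high levels in supporting cells too, and E12.5 replicate 1 was highest in all of them. *Cstdc1*, of the cystatin family, had 9.95, 8.30 and 9.02 at E12.5, against 6.88, 6.05 and 7.34 at E11.5 (5.05-fold higher, adjusted p = 0.00012), with 11.31 in supporting cells at E12.5. *Kazald1*, which encodes a secreted protein with a Kazal domain, had 8.49, 7.05 and 7.5 at E12.5, against 5.51, 5.26 and 5.49 at E11.5 (4.78-fold higher, adjusted p = 3.3e-09), with 9.58 in supporting cells. *Prss35*, a serine protease relative, had 10.63, 9.41 and 10.01 at E12.5, against 8.03, 8.01 and 7.95 at E11.5 (4.06-fold higher, adjusted p = 1.4e-10), with 10.75 in supporting cells. In contrast *Enpep* read 6.14 and *Itga4* 7.43 in supporting cells at E12.5, below the *αSma-EYFP* cells. Cystatin genes resemble each other, and the probes of such families were not screened here for shared targets.

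*Inhba*, which encodes the activin A subunit and is known from the fetal testis interstitium, rose. It had log2 levels of 8.51, 8.50 and 8.83 at E12.5, against 6.80, 6.59 and 6.55 at E11.5 (3.9-fold higher, adjusted p = 5.1e-11), and averaged 9.48 at E13.5. *Tgfbr3*, the coreceptor betaglycan, had 8.60, 8.80 and 8.70 at E12.5, against 7.89, 8.09 and 7.68 at E11.5 (1.76-fold higher, adjusted p = 0.00064). On the side of BMP signals, *Bmp2* had 7.62, 6.91 and 7.78 at E12.5, against 8.78, 8.75 and 8.40 at E11.5 (2.31-fold lower, adjusted p = 0.0035). *Bmp4* had 7.79, 7.88 and 7.79 at E12.5, against 8.30, 8.93 and 8.32 at E11.5 (1.62-fold lower, adjusted p = 0.0062), and *Id3*, a target of BMP signals, was 1.65-fold lower (adjusted p = 0.036). No stage overlapped for any of them. The lower BMP genes rested on single arrays: *Bmp2* was not called without E12.5 replicate 2 (-0.94, adjusted p = 0.088), *Bmp4* without E11.5 replicate 2 (-0.49, adjusted p = 0.17) and *Id3* in any fit that left out 1 array other than E12.5 replicate 1 (adjusted p 0.061 to 0.17). Of 28 measured genes of this list 2 were higher and 3 lower, beside 1.34% and 1.97% of all genes, and the median was -0.04. The lower count was between 1 (without E12.5 replicate 2 or E11.5 replicate 2) and 5 (without E12.5 replicate 1).

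Genes that mark pre-granulosa cells, the XX counterparts of Sertoli cells, were lower or not called. Of 15 measured, 4 were lower (1.97% of all genes were), none was higher and the median was -0.33. *Runx1*, a transcription factor of these cells, had log2 levels of 6.76, 7.20 and 6.73 at E12.5, against 8.50, 8.29 and 8.22 at E11.5 (2.71-fold lower, adjusted p = 1.3e-09). *Nr0b1*, the X-linked repressor DAX1, had 7.56, 7.44 and 7.45 at E12.5, against 9.14, 8.59 and 9.03 at E11.5 (2.7-fold lower, adjusted p = 0.00049). *Kitl*, the ligand that keeps germ cells alive, had 8.93, 7.99 and 8.06 at E12.5, against 9.67, 9.35 and 9.10 at E11.5 (2.07-fold lower, adjusted p = 0.0015). The stages did not overlap for any of these. *Bmp2*, described above, was the other lower gene, and was not called without E12.5 replicate 2 (-0.94, adjusted p = 0.088). *Foxl2* read 6.17, 6.23 and 6.36 at E12.5, against 6.20, 6.20 and 6.28 at E11.5, near the limit at both stages, and *Wnt4* was not called (difference -0.24, adjusted p = 0.587).

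Apart from *Sry*, the genes with the largest fall were of mixed function. *Calb1*, the calcium-binding protein calbindin, had 5.69, 6.48 and 6.25 at E12.5, against 9.04, 8.96 and 8.82 at E11.5 (6.97-fold lower, adjusted p = 7.1e-12). *Emb*, the adhesion molecule embigin, had 6.18, 5.74 and 5.76 at E12.5, against 8.46, 8.48 and 8.63 at E11.5 (6.2-fold lower, adjusted p = 1.2e-08). *Tgm3*, a transglutaminase, had 6.72, 6.99 and 6.44 at E12.5, against 9.46, 9.13 and 9.41 at E11.5 (6.12-fold lower, adjusted p = 3.3e-17). The arrays of a stage lay close together for these genes, and the stages were far apart. *Nefm*, the medium neurofilament chain, had 6.11, 6.12 and 6.47 at E12.5, against 8.27, 10.48 and 8.22 at E11.5, and replicate 2 of E11.5 stood apart from the others while all lay above E12.5 (6.75-fold lower at E12.5, adjusted p = 8e-08). Without that array the log2 difference of *Nefm* was -2.01 (adjusted p = 8.1e-05), beside -2.75 with it. E11.5 replicate 2 was also the highest E11.5 array for *Foxd1*, with 6.22, 6.09 and 6.69 at E12.5, against 7.15, 9.01 and 7.31 at E11.5. *Foxd1* is a marker of renal stroma, and it was named after its values were seen.

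*Ptgs2*, the inducible cyclooxygenase, had 6.20, 6.48 and 6.49 at E12.5, against 9.15, 8.80 and 8.19 at E11.5 (5.01-fold lower, adjusted p = 2.5e-13). *Trpc7*, a cation channel, had 5.30, 5.47 and 5.30 at E12.5, against 7.80, 7.43 and 7.57 at E11.5 (4.73-fold lower, adjusted p = 9.7e-18). *Pnliprp2*, a relative of pancreatic lipase, had 9.88, 9.54 and 9.55 at E12.5, against 11.83, 11.73 and 11.96 at E11.5 (4.54-fold lower, adjusted p = 4.3e-10). Its neighbour in the family *Pnliprp1* was 3.96-fold lower, with 5.68, 6.12 and 5.91 at E12.5, against 7.98, 7.51 and 8.17 at E11.5. The probes of these related genes were not screened for shared targets. *Taf7l*, an X-linked subunit of the general transcription machinery, was 4.65-fold lower (adjusted p = 1.2e-09), and the unnamed gene *2210407C18Rik* was 3.64-fold lower (adjusted p = 1.3e-10). Neither had overlapping arrays.

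Among the lists, that of the immediate early genes held the most lower genes. These genes are switched on within minutes by growth factors, by stress and by the dissociation of tissue. The time from dissection to lysis at each stage is not given in the sources used here, so stage and handling cannot be told apart. Of 21 measured, 15 were lower at E12.5, none was higher and the median was -0.97, against 1.97% of all genes called lower and a median of 0.009. *Atf3*, a transcription factor of stress responses, had log2 levels of 8.16, 8.22 and 8.24 at E12.5, against 10.74, 10.76 and 10.79 at E11.5 (5.88-fold lower, adjusted p = 3.5e-07). *Jun*, part of the AP-1 complex, had 9.92, 10.20 and 9.94 at E12.5, against 11.67, 11.59 and 11.44 at E11.5 (2.93-fold lower, adjusted p = 1.8e-05). *Dusp1*, a phosphatase that ends MAP kinase signals, had 8.84, 8.87 and 8.74 at E12.5, against 10.52, 10.30 and 10.29 at E11.5 (2.93-fold lower, adjusted p = 8.7e-07). The arrays of a stage lay close together for these genes, and the stages did not overlap. *Myc* had 8.51, 8.52 and 8.81 at E12.5, against 10.15, 10.03 and 10.04 at E11.5 (2.75-fold lower, adjusted p = 4e-06), and *Klf4* had 7.76, 7.56 and 7.68 at E12.5, against 8.99, 9.14 and 9.09 at E11.5 (2.65-fold lower, adjusted p = 1.3e-05).

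The mean of the 21 genes was 8.65, 8.79 and 8.76 in the E12.5 arrays, against 9.76, 9.67 and 9.64 in the E11.5 arrays. The same list had 7 lower genes in XX *αSma-EYFP* cells (median -0.51), while in XY supporting cells the median was 0.15 across a change of reporter. The E12.5 minus E11.5 difference, called the step from here on, differed by a called amount for none of the 21 between XY and XX *αSma-EYFP* cells. The list count was 12 to 14 when 1 array was left out. *Ddit3*, *Atf4* and *Asns*, genes of the integrated stress response picked after their values were seen, were also lower. They came from no list, so the response as a whole was not counted. Their calls without 1 array were not examined. *Ddit3* had 8.94, 9.16 and 9.14 at E12.5, against 9.98, 10.85 and 10.11 at E11.5 (2.36-fold lower, adjusted p = 8.1e-07). *Atf4* was 1.62-fold lower and *Asns* 1.98-fold lower.

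Among the 16 immediate early genes with a promoter in the RefSeq table (250 bases before to 50 bases after the gene start, GRCm38.p6), *Dusp1* alone held the cAMP response element TGACGTCA, which reads the same on both strands, as did 2.03% of all 27025 genes with a promoter. This motif was chosen after the values were seen. The promoter of *Dusp1*, chr17:26508423-26508722 on the minus strand, is shown because it is the single match among the genes that fell together, with the element in capitals 143 bases before the start.
Dusp1: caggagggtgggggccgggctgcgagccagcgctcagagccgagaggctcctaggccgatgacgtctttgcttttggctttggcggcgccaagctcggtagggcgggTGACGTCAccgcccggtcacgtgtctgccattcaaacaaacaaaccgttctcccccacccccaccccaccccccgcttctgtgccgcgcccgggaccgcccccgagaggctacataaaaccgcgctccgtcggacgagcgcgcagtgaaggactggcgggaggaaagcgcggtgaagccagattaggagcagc

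The division of cells is run by genes that come on together before mitosis, through a promoter element, the cell cycle homology region, and CCAAT boxes nearby. Of 23 measured mitosis genes 4 were higher at E12.5 (1.34% of all genes were), none was lower and the median was 0.41. *Cenpe*, a kinetochore motor, had log2 levels of 10.40, 10.50 and 10.70 at E12.5, against 9.85, 10.11 and 9.64 at E11.5 (1.59-fold higher, adjusted p = 0.003). *Anln*, a protein of the cleavage furrow, had 9.24, 9.27 and 9.28 at E12.5, against 8.69, 8.89 and 8.35 at E11.5 (1.53-fold higher, adjusted p = 0.003). *Cenpf*, another kinetochore protein, had 10.23, 10.18 and 10.48 at E12.5, against 9.45, 9.94 and 9.57 at E11.5 (1.56-fold higher, adjusted p = 0.049). In each of these, and in *Bub1b* (1.54-fold higher, adjusted p = 0.02), the E12.5 arrays lay above the E11.5 arrays without overlap. These calls were near the limits. Without E11.5 replicate 3 none of the 23 was called, without E12.5 replicate 3 there was 1, without E11.5 replicate 1 there were 2, without E12.5 replicate 1 or 2 there were 6 and without E11.5 replicate 2 there were 8. The adjusted p without E11.5 replicate 3 was 0.061 for *Cenpe*, 0.18 for *Cenpf*, 0.097 for *Bub1b* and 0.097 for *Anln*. The mean of the 23 genes was 9.82, 9.83 and 9.94 at E12.5, against 9.39, 9.61 and 9.31 at E11.5.

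Of the mitosis genes 19 had a listed promoter. TTTGAA, the core of the cell cycle homology region, was present on either strand in 15 of these 19 and in 20.2% of all genes, and CCAAT in 16 of 19 and in 41.1% of all genes. Both were in 1 promoter for 14 of the 19, and for 7.97% of all genes. The promoters of *Cenpf* (chr1:189688037-189688336, minus strand) and *Bub1b* (chr2:118597961-118598260, plus strand) are shown as 2 of the called genes that hold both, with TTTGAA and CCAAT, or ATTGG where CCAAT is on the other strand, in capitals.
Cenpf: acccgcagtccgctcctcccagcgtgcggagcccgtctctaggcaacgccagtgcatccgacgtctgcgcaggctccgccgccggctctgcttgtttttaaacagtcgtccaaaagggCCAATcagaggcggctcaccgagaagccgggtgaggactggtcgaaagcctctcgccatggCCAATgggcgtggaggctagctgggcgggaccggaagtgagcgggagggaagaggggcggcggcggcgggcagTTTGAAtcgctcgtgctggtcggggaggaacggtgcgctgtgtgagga
Bub1b: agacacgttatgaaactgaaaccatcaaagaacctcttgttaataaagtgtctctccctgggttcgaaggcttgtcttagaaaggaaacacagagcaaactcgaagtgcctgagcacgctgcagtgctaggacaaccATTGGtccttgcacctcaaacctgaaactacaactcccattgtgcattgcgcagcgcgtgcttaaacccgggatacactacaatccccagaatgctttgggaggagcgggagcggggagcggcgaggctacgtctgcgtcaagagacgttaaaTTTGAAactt
The promoters of *Cenpe* and *Anln* held 1 of the motifs each, CCAAT in *Cenpe* and TTTGAA in *Anln*.

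Of 28 DNA replication genes 1 was lower (*Orc1*, which loads the replication origin, 1.95-fold lower, adjusted p = 7.1e-05), none was higher and the median was 0.04. Of 13 cell cycle inhibitors 3 were lower (1.97% of all genes were), none was higher and the list median was 0.04. The list as a whole thus did not fall. *Gadd45g*, a stress-induced gene that is needed for timely *Sry* expression in mice, had log2 levels of 6.80, 7.07 and 6.68 at E12.5, against 8.53, 8.28 and 8.53 at E11.5 (3.02-fold lower, adjusted p = 2.1e-08). *Cdkn1c*, the inhibitor p57, had 9.65, 9.63 and 9.85 at E12.5, against 10.59, 10.48 and 10.70 at E11.5 (1.84-fold lower, adjusted p = 3.2e-07). Neither overlapped between the stages. The third, *Btg2*, had a difference of -1.0 (adjusted p = 0.033), which was not called in any fit without 1 array other than E12.5 replicate 1 (highest adjusted p 0.15, without E11.5 replicate 1).

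Of 27 measured Wnt genes 1 was higher (*Wnt5a*) and 3 were lower, beside 1.34% and 1.97% of all genes. There were 2 higher genes without E12.5 replicate 2 or E11.5 replicate 1. The lower ones were the secreted Wnt inhibitors *Sfrp2* (difference -1.04) and *Frzb* (-0.95) and the Wnt target *Sp5* (-0.63, adjusted p = 0.0084). *Sfrp2* had 6.79, 7.06 and 7.25 at E12.5, against 7.58, 8.95 and 7.68 at E11.5, and *Frzb* overlapped, with 5.92, 6.76 and 6.43 at E12.5, against 7.15, 8.35 and 6.46 at E11.5. E11.5 replicate 2 was the highest for both, and without it neither was called (*Sfrp2* -0.59, adjusted p = 0.24, and *Frzb* -0.43, adjusted p = 0.39); *Frzb* was also lost without E12.5 replicate 1 (-0.72, adjusted p = 0.1) and *Sp5* without E11.5 replicate 1 (-0.58, adjusted p = 0.06). In the Notch list of 18, *Heyl*, a target of the receptor, was 1.68-fold higher (adjusted p = 0.0024) and *Hes1* 1.77-fold lower (adjusted p = 0.032), with *Hes1* lost without E12.5 replicate 1 or 3 or E11.5 replicate 1 or 2 (adjusted p 0.096 to 0.18). The list had 2 higher genes without E12.5 replicate 3 and 2 lower genes without E11.5 replicate 3. In the FGF list of 17, 2 were higher and 1 lower, with 2 lower without E12.5 replicate 1 or E11.5 replicate 2. The ligand *Fgf18* rose, with 9.50, 9.24 and 9.58 at E12.5, against 8.49, 8.63 and 8.52 at E11.5 (1.85-fold, adjusted p = 0.0023), and the feedback inhibitor *Spry2* fell, with 8.10, 8.42 and 8.57 at E12.5, against 9.31, 9.34 and 9.36 at E11.5 (1.96-fold, adjusted p = 0.00023). No arrays of *Fgf18* or *Spry2* overlapped. The other higher gene, the transcription factor gene *Etv1* (0.73, adjusted p = 0.026), was not called in any fit without 1 array other than E12.5 replicate 1 (highest adjusted p 0.19, without E12.5 replicate 3).

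The remaining lists were small and held called genes that were few in number, where 1.34% of all genes were higher and 1.97% lower. Of 11 PDGF and VEGF genes the coreceptor gene *Nrp2* was higher, with 7.87, 8.11 and 8.14 at E12.5, against 7.11, 7.43 and 7.24 at E11.5 (1.72-fold, adjusted p = 7.6e-05), and the ligand gene *Pdgfc* was lower (-0.69, adjusted p = 0.035), but in none of the 6 fits without 1 array (adjusted p 0.071 to 0.15). Of 13 retinoic acid genes the receptor gene *Rarb* was lower (-0.75, adjusted p = 0.0041), though not without E11.5 replicate 2 (-0.59, adjusted p = 0.085). Of 18 cholesterol synthesis genes *Idi1* (-0.76, adjusted p = 0.017) and *Insig1* (-0.71, adjusted p = 0.0015) were lower and the list median was -0.18; *Idi1* was not called without E12.5 replicate 3, E11.5 replicate 1 or E11.5 replicate 2 (adjusted p 0.14, 0.057 and 0.095). Of 17 glycolysis and hypoxia genes *Egln3*, an oxygen sensor, was higher (0.75, adjusted p = 0.009), and *Adm*, the vessel peptide adrenomedullin (-1.19, adjusted p = 0.0027), and the aldolase gene *Aldoc* (-0.75) were lower. None of these held throughout, and 3 were lower without E11.5 replicate 1. *Egln3* was not called without E12.5 replicate 3 or E11.5 replicate 2 (adjusted p 0.23 and 0.07), *Adm* without E11.5 replicate 2 (0.074) and *Aldoc* without E12.5 replicate 1, E12.5 replicate 3 or E11.5 replicate 2 (0.076, 0.067 and 0.18). Of 24 Hox genes *Hoxd4* was higher (0.67, adjusted p = 0.026), but was not called in any fit without 1 array other than E12.5 replicate 1 (highest adjusted p 0.13).

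**Figure D3:**
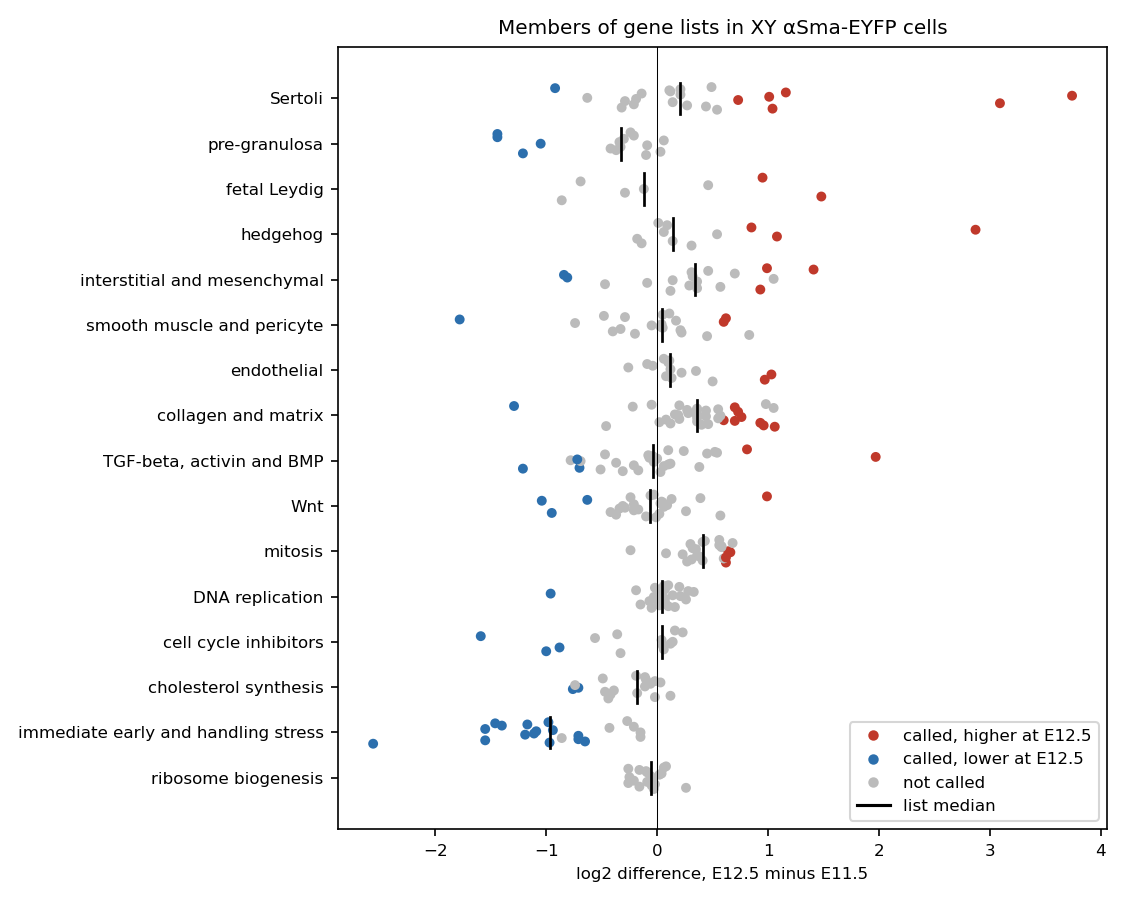
Log2 difference (E12.5 minus E11.5, horizontal axis) of each measured gene of 16 lists (vertical axis) in XY *αSma-EYFP* cells, red where called higher, blue where called lower and grey where not called, with a bar at the list median. The median of the immediate early genes is -0.97 and that of the mitosis genes 0.41.

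Markers of other cell types were mostly not called, where 1.34% of all genes were higher and 1.97% lower. None of the 5 measured macrophage genes, 7 red blood cell genes or 8 germ cell genes was called. Their mean levels were 6.64 to 6.82, 7.01 to 7.48 and 6.83 to 7.09 at E12.5, and 6.71 to 6.86, 7.18 to 7.70 and 6.86 to 7.01 at E11.5, with *Csf1r*, *Aif1*, *Adgre1* and *Ptprc* of macrophages and *Pou5f1*, *Ddx4* and *Dazl* of germ cells below the limit at both stages. Of 14 endothelial genes 2 were higher, *Emcn* (7.45, 7.74 and 6.95 at E12.5, against 6.41, 6.65 and 5.98 at E11.5, adjusted p = 0.0022) and *Cdh5* (8.32, 7.19 and 7.29 at E12.5, against 7.0, 6.35 and 6.55 at E11.5, adjusted p = 0.021). Neither held without E11.5 replicate 3 (adjusted p = 0.055 and 0.089), and *Cdh5* was also lost without E12.5 replicate 1 (adjusted p = 0.4) or E11.5 replicate 2 (adjusted p = 0.14) and *Emcn* without E12.5 replicate 2 (adjusted p = 0.051). *Kdr* and *Pecam1*, other markers of vessels, were not called (differences -0.26 and -0.04), and *Flt1*, *Tek* and *Sox17* were below the limit. The mean of the 14 genes was 6.89 to 7.10 at E12.5 and 6.74 to 6.80 at E11.5. The part of vessel cells in these differences was not tested. Of 12 mesonephric and ductal genes the keratin gene *Krt18* was lower (1.85-fold, adjusted p = 0.0037), none was higher, and 2 were lower without E12.5 replicate 1. Of 5 neural genes the receptor gene *Erbb3* was higher (0.65, adjusted p = 0.018), but not without E12.5 replicate 1 (0.31, adjusted p = 0.59) or E11.5 replicate 2 (0.56, adjusted p = 0.12). Of 13 genes of the coelomic epithelium and genital ridge, *Numb* (1.59-fold, adjusted p = 0.00021) and *Wt1* (1.6-fold, adjusted p = 0.019) were lower. *Wt1*, which the early gonad needs, had 10.42, 10.51 and 10.17 at E12.5, against 11.16, 10.98 and 11.01 at E11.5, and was not called without E12.5 replicate 3 (adjusted p = 0.15), E11.5 replicate 1 (0.11) or E11.5 replicate 3 (0.052). No gene of 20 for ribosome biogenesis was called.

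Distances between arrays (Euclidean, log2) were taken over the 15149 member clusters, so a gene with several clusters counts several times. Each E12.5 array lay 26.5 to 27.3 from its own group's other arrays and 41.1 to 41.2 from the E11.5 arrays. Each E11.5 array lay 25.7 to 26.9 from its own group's other arrays and 40.2 to 42.1 from the E12.5 arrays. The E11.5 arrays were nearer to XX *αSma-EYFP* cells of E11.5 (29.2 to 30.9) than the E12.5 arrays were to XX *αSma-EYFP* cells of E12.5 (42.1 to 44.2). To XY supporting cells the distances were 68.1 to 77.6 at E12.5 and 61.4 to 67.8 at E11.5. The E12.5 array nearest to supporting cells was replicate 1, at 68.1, with 77.2 and 77.6 for the others. These distances are a description without a test.

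The step of XY *αSma-EYFP* cells was set against that of XX *αSma-EYFP* cells, which share no arrays with them, to ask which steps differed between them. Among the same 13778 genes XX cells had 215 called genes (1.56%), 88 higher at E12.5 (0.639%) and 127 lower (0.922%). Genes that reached the limit in XX but not in XY *αSma-EYFP* cells were not counted. Of the 185 genes higher in XY cells, 16 were higher in XX cells as well, 8.65% of the XY and 18.2% of the XX genes. Of the 272 genes lower in XY cells, 70 were lower in XX cells, 25.7% of the XY and 55.1% of the XX genes. In the test of the difference between the steps, 176 genes were called (1.28%), 74 with the more positive step in XY cells (0.537%) and 102 with the more negative step in XY cells (0.74%). Of the 74, 51 had a called step in XY cells alone, 9 in XX cells alone, 3 in both and 11 in neither. For the 102 these counts were 50, 35, 4 and 13. Of the 185 higher genes 54 differed in this test, and of the 272 lower genes also 54. These genes were picked by their step in XY cells, and the test uses the same XY arrays. A high share was thus favoured in advance, and nothing is concluded from it.

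**Figure D4:**
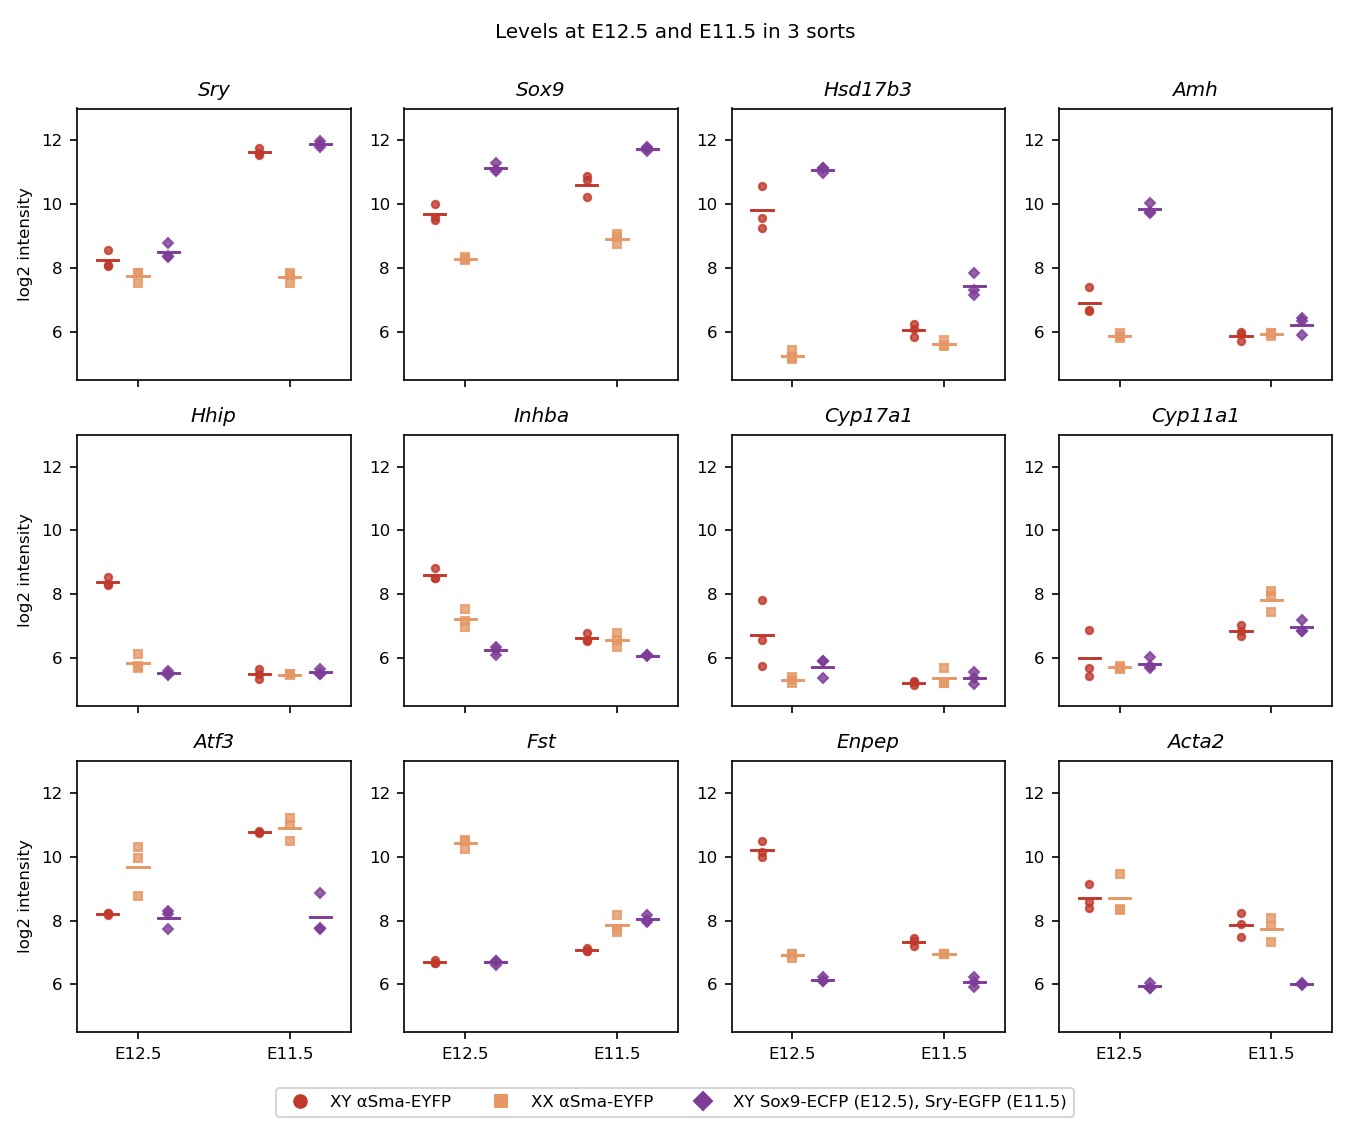
Log2 intensity (vertical axis) of 12 genes at E12.5 (left) and E11.5 (right) in XY *αSma-EYFP*, XX *αSma-EYFP* and XY supporting cells, in that order within a stage; points are the 3 arrays and bars their mean. *Sry* in XY *αSma-EYFP* cells averages 8.25 at E12.5 and 11.64 at E11.5, and *Fst* averages 10.41 in XX *αSma-EYFP* cells at E12.5 and 7.85 at E11.5.

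Genes with the more positive step in XY cells included *Hsd17b3* (XY minus XX step 4.11, adjusted p = 1.1e-10), *Enpep* (2.90, adjusted p = 3.1e-08), *Defb19* (2.87, adjusted p = 1.1e-06), *Hhip* (2.50, adjusted p = 2e-15), *Aplnr* (2.10, adjusted p = 0.00019) and *Itga4* (2.05, adjusted p = 2.9e-07). In XX cells *Enpep* read 6.91 at E12.5 and 6.95 at E11.5, and *Hhip* 5.86 and 5.49. *Cstdc1* belonged to them too (2.42, adjusted p = 0.022), but not without E12.5 replicate 1 of XY cells (1.99, adjusted p = 0.16), E11.5 replicate 2 of XY cells (2.07, adjusted p = 0.13), E12.5 replicate 2 of XX cells (2.38, adjusted p = 0.053) or E11.5 replicate 3 of XX cells (2.26, adjusted p = 0.084). All 3 called hedgehog genes were among these, since *Gli1* differed by 1.34 (adjusted p = 1.2e-05) and *Ptch1* by 1.74 (adjusted p = 2e-05). *Ptch1* fell in XX cells, to 8.77 at E12.5 against 9.65 at E11.5, where it rose in XY cells. Of the Sertoli genes 4 had the more positive step in XY cells, also *Ptgds* (1.14, adjusted p = 0.0044) and *Amh* (1.10, adjusted p = 0.0034), which were not called without E12.5 replicate 1 of XY cells (0.79, adjusted p = 0.092, and 0.85, adjusted p = 0.057). The largest opposite step was that of *Cbln1*, a secreted protein best known from cerebellar synapses. It had 11.41, 11.53 and 11.56 in XY cells at E12.5, against 10.19, 9.97 and 10.20 at E11.5 (2.6-fold higher, adjusted p = 2e-05), and averaged 7.67 in XX cells at E12.5, against 9.70 at E11.5. Its steps differed by 3.41 (adjusted p = 1.1e-11). *Eya1*, a transcription cofactor of organ development named after its values were seen, had 8.09, 7.93 and 7.99 in XY cells at E12.5, against 6.61, 6.01 and 6.14 at E11.5 (3.36-fold higher, adjusted p = 1.4e-10). In XX *αSma-EYFP* cells *Eya1* stood at 6.04 and 5.93, and the steps differed by 1.64 (adjusted p = 3.5e-05).

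Other genes had the more negative step in XY cells. *Sry* (-3.40, adjusted p = 2e-15) is Y-linked and absent from XX cells, so its difference only restates its fall in XY cells. It is counted among the 176 genes. *Calb1* was not called in XX cells, with 9.21 at E12.5 and 9.31 at E11.5, and the steps differed by -2.70 (adjusted p = 3e-06). *Runx1* had 8.68 and 8.83 in XX cells (difference of the steps -1.29, adjusted p = 0.00028), and *Cdkn1c* 10.96 and 10.84 (-1.0, adjusted p = 0.00012). *Fst*, which encodes the activin inhibitor follistatin, had 6.67, 6.77 and 6.66 in XY cells at E12.5, against 7.05, 7.13 and 7.05 at E11.5 (not called, adjusted p = 0.481), but averaged 10.41 in XX cells at E12.5, against 7.85 at E11.5. The steps of *Fst* differed by -2.94 (adjusted p = 3.9e-11), those of the collagen gene *Col12a1* by -2.28 (adjusted p = 6.3e-08) and those of *Lrrn1*, a leucine-rich repeat protein, by -2.09 (adjusted p = 2.8e-05). In XX cells *Col12a1* rose by 1.82 and *Lrrn1* by 1.8, both called. Their steps in XY cells, -0.46 and -0.29, were not called. *Fst* thus rose in XX cells, and *Inhba*, the activin subunit gene, rose more in XY cells (difference of the steps of *Inhba* 1.3, adjusted p = 0.0054). The step of *Inhba* was 1.97 in XY cells and 0.67, not called, in XX cells. *Cst12*, a cystatin relative, differed by -2.23 (adjusted p = 0.019), a call lost in 5 of the 12 fits without 1 array (highest adjusted p 0.1, without E12.5 replicate 3 of XX cells). The step of *Cst12* was 0.26, not called, in XY cells and 2.48, called, in XX cells.

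**Figure D5:**
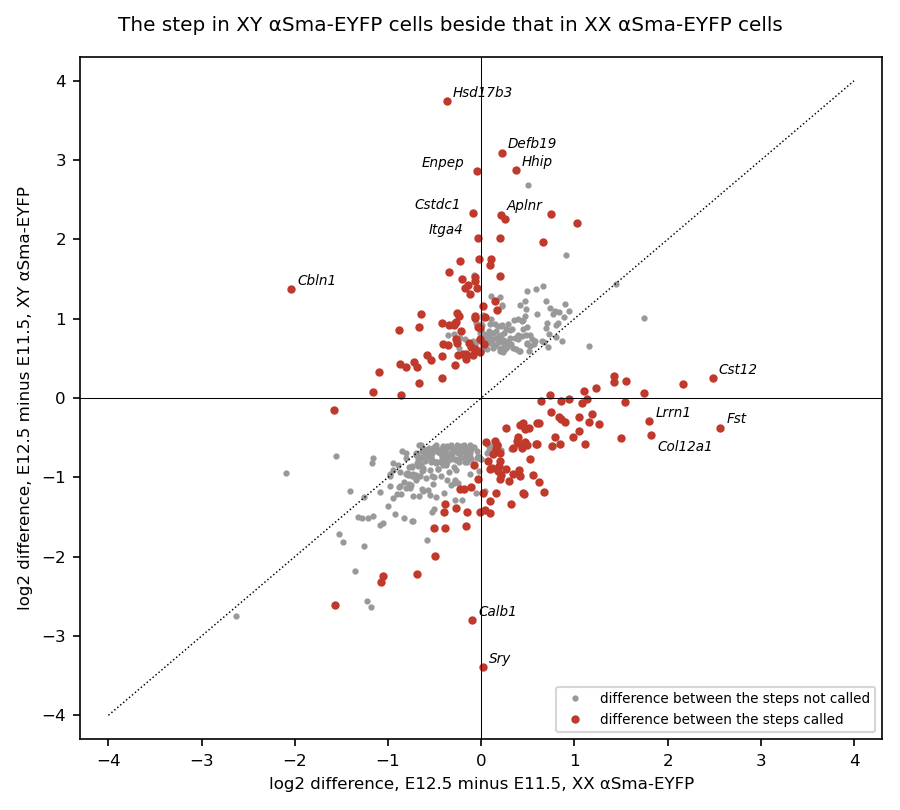
The step (log2 difference, E12.5 minus E11.5) in XY *αSma-EYFP* cells (vertical axis) against that in XX *αSma-EYFP* cells (horizontal axis), for genes called in XY *αSma-EYFP* cells or in the test of the difference. Red points are the 176 genes whose steps differed by a called amount, and the dotted line marks equal steps.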

How the data were processed

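The deposited table held log2 intensities of 35557 transcript clusters in 91 arrays. Per the labels and the methods, the authors scanned with GCOS and made the log2 values by robust multichip averaging in Partek, with background correction, quantile normalization, median polish and an adjustment of probes for GC content and sequence. Per the methods, all 91 arrays were processed together for the *αSma-EYFP* analysis; whether the deposited table is that run is not stated. RNA had been amplified (Nugen WT-Ovation Pico) from sorted, pooled cells. After amplification and quantile normalization levels are relative within an array, and the number of arrays limits the precision.

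Clusters that the platform annotation ties to 1 gene were kept (21789, of which 21698 matched RefSeq); 1621 clusters with several genes and 12147 with none listed were left out, and the authors' filter against cross-hybridizing clusters was not applied. The cluster with the highest mean stood for its gene; of 759 genes with several measured clusters, 16 had clusters with and without a call, none had opposite calls, and 9 were called only in another cluster. No pair of arrays correlated above 0.9943. The array of a whole newborn mouse was not used. One mean per group was fitted to the other 90 arrays (30 groups, 60 residual degrees of freedom) with lmFit and eBayes of limma 3.58.1 in R 4.3.3, with Benjamini-Hochberg adjustment over the 16859 clusters at a log2 value of 6 or more in 2 of 3 arrays of some group. Standard errors (SE) are those of this fit. A call needed an adjusted p under 0.05 and a fold over 1.5. Differences between steps were contrasts of the same fit. Scripts were tested on simulated data.

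Named were the 12 genes with the largest log2 difference in each direction among called genes without overlap, up to 5 called genes per list, fixed genes (*Sry*, *Sox9*, *Acta2*, *Amh*, *Dhh*, *Nr5a1*, *Pdgfra*, *Cyp11a1* and *Nr2f2*) and the 6 genes in each direction with the largest called difference between the steps of XY and XX cells; the other names were added after their values were seen. Some planned comparisons are not reported here. The members, lists and tests were chosen with earlier results of these data known. Alternatives changed the arrays in the fit, the filter, the normalization, the call rule, array weights and the variance trend, or left out 1 array. Replicate numbers were not shown to pair the samples. Promoters came from RefSeq (GRCm38.p6, 32851 promoters of 27025 genes, 10938 of them measured here).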

Additional observations from a re-analysis of the deposited data

Results flagged for a closer look

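Each value below is the step (E12.5 minus E11.5, log2) in XY *αSma-EYFP* cells minus the step in XX *αSma-EYFP* cells, for genes named in the text whose steps differed in the test of the difference itself (limma, adjusted p under 0.05 over all clusters fitted, fold over 1.5).

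The more positive step in XY cells, by size, was found for *Hsd17b3* (4.11), *Cbln1* (3.41), *Enpep* (2.90), *Defb19* (2.87), *Hhip* (2.50), *Cstdc1* (2.42), *Aplnr* (2.10), *Itga4* (2.05) and *Kazald1* (2.00). The next in size were *Prss35* (1.82), *Ptch1* (1.74), *Eya1* (1.64), *Igfbp7* (1.57), *Fgf18* (1.56), *Pltp* (1.56), *Cyp17a1* (1.55), *Gli1* (1.34), *Inhba* (1.3) and *Vnn1* (1.24). Smaller values were those of *Col14a1* (1.23), *Rtn4rl1* (1.17), *Ptgds* (1.14), *Amh* (1.10), *Hgf* (1.07), *Hoxd4* (1.02) and *Smtn* (0.69).

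The more negative step in XY cells was found for *Sry* (-3.40), *Fst* (-2.94), *Calb1* (-2.70), *Col12a1* (-2.28), *Cst12* (-2.23), *Lrrn1* (-2.09), *Cav1* (-1.86), *Bmp2* (-1.66) and *Adm* (-1.64). Less negative values were those of *Taf7l* (-1.52), *Pnliprp1* (-1.49), *Kitl* (-1.35), *Runx1* (-1.29), *Ptgs2* (-1.25), *Trpc7* (-1.19), *Krt18* (-1.15), *Tgm3* (-1.04), *Cdkn1c* (-1.0), *Sp5* (-0.96) and *Myh11* (-0.70). Some of these calls were lost in fits without 1 array, of which there were 12 for each gene. *Rtn4rl1* lost its call in 11 of the 12, *Hoxd4* in 9, *Krt18* and *Tgm3* in 7, *Smtn* in 6 and *Cst12* in 5. *Adm*, *Bmp2*, *Cstdc1* and *Kitl* lost it in 4, *Taf7l* and *Hgf* in 3, and *Cyp17a1*, *Ptgs2*, *Sp5*, *Vnn1* and *Myh11* in 2. *Amh*, *Igfbp7* and *Ptgds* lost it in 1. The difference of *Cyp17a1* was 0.99 (adjusted p = 0.25) without E12.5 replicate 1 of XY cells. The steps of *Fst*, *Col12a1*, *Cst12*, *Lrrn1* and *Myh11* were called, as rises, in XX cells and were not called in XY cells. For *Sry* the difference restates the step in XY cells, because XX cells have no Y chromosome.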

How the results depend on the processing

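The count of genes higher at E12.5 was 185. It was 297 with no limit on the fold, 143 to 185 without 1 array, and 177 to 229 under the other alternatives. The count of lower genes was 272. It was 411 with no limit on the fold, 229 to 256 without 1 array, and 259 to 330 under the others. The steps of XY and XX *αSma-EYFP* cells differed for 176 genes, for 471 by unadjusted p, for 323 with array weights and for 124 to 170 without 1 array. In a fit of the 18 *αSma-EYFP* arrays alone they differed for 262 genes, of which 158 were among the 176. Under the other alternatives the count was 164 to 192. The cause of these shifts was not tested, other than that looser limits call more genes.

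Same-numbered E12.5 and E11.5 arrays had correlations of deviations of 0.169, 0.133 and 0.03, and each array correlated best with its own number, but nothing in the labels pairs them. With the replicate number as a block in a fit of the 6 arrays alone, 204 genes were higher and 307 lower, of which 170 and 258 were among the 185 and 272; without the block, 195 and 301 were called in these 6 arrays. In the 6 arrays alone the list counts also moved: no fetal Leydig, neural or glycolysis gene was higher (2, 1 and 1 in the fit of 90 arrays) and 1 Wnt gene was lower (3 in that fit), while 5 interstitial genes (3) and 4 Hox genes (1) were higher and 5 BMP and activin genes (3) were lower. The count of higher mitosis genes was 8, in place of 4, with further quantile normalization or array weights.

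For single genes, 2517 values stayed on their side of the limits, 186 lost and 10 gained a call, and 3 turned sign. All 3 were values of genes not called in XY *αSma-EYFP* cells: *Dhh* (-0.07) and *Cst12* (-0.21) without E12.5 replicate 1, and *Myh11* (-0.01) without E12.5 replicate 2. Without 1 array these ranged over -0.07 to 0.35 for *Dhh*, -0.21 to 0.51 for *Cst12* and -0.01 to 0.09 for *Myh11*. Scaling moved the median over all clusters by less than 0.1 (0.0088 as deposited, 0.0031 after further quantile normalization, -0.0015 after centring).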

Other observations

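E13.5 *αSma-EYFP* arrays were outside the comparison, and their levels are given as values. *Hhip* averaged 8.66, *Acta2* 9.87, *Gli1* 8.92, *Itga4* 9.29 and *Fat3* 11.14 at E13.5. *Hsd17b3* averaged 8.62, *Amh* 6.3, *Sox9* 9.0 and *Calb1* 5.49. The mean of the 22 Sertoli genes was 7.74 to 8.01 in the E13.5 arrays.

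Genes of other functions, named after their values were seen, also differed between the stages. *Vegfd*, a ligand of lymphatic and blood vessel receptors, had log2 levels of 9.65, 9.72 and 9.99 at E12.5, against 7.72, 9.23 and 7.73 at E11.5 (difference 1.55, adjusted p = 0.00094), with E11.5 replicate 2 near the E12.5 arrays. *Hgf*, the hepatocyte growth factor of mesenchyme, was higher by 1.22, and *Pltp*, a lipid transfer protein, by 1.42. *Alx1*, a homeobox gene of mesenchyme, had 6.51, 6.37 and 6.28 at E12.5, against 7.87, 8.07 and 7.76 at E11.5 (difference -1.52, adjusted p = 1.1e-09). *Cav1*, the main protein of caveolae, had a difference of -1.19, and its step differed from that of XX *αSma-EYFP* cells by -1.86. *Gata4* (difference -0.33, adjusted p = 0.404) and *Lhx9* (-0.20, adjusted p = 0.927), transcription factors of the early gonad, were not called.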
